A study of Mus musculus with 6 samples.

Results

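Multiciliated cells carry many motile cilia on their surface. They line the oviduct, the airways and the ventricles of the brain, and adipose tissue is not known as a place where they sit. The shaft of a motile cilium, the axoneme, is built of microtubule doublets. Dynein arms on the doublets provide the force, while radial spokes and the central apparatus control the beat. Foxj1 is the transcription factor that switches on the motile cilium genes, and it works together with factors of the Rfx family.

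Nuclei with this transcript set were selected from gonadal (visceral) fat of female C57BL/6J mice. Single nuclei were sequenced in 6 libraries, namely 2 of subcutaneous (inguinal) fat (SAT) at 2 months, 2 of SAT at 24 months and 2 of visceral (gonadal) fat (VAT) at 24 months. The sample labels give 24 months for the older mice, but 26 months is the age in the description of the series design. No treatment is named, and all libraries carry the same date. Which SAT and VAT libraries came from the same mouse was not stated in the sources used here. The labels name the cell type as adipocytes, but adipocyte markers were low in the nuclei described here, as given below.

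A nucleus was kept with over 500 genes, over 1000 unique molecular identifiers (UMIs, each counting 1 captured RNA molecule) and under 15% mitochondrial UMIs. It was called multiciliated with at least 4 UMIs in sum over Dnah12, Dnah6, Dnah5, Dnah9, Spag17, Hydin and Cfap43, from at least 3 of these 7 genes. At most 1 UMI was allowed over 6 genes of other cells, which were Ptprc, Skap1, Ptprb, Upk3b, Plin1 and Lhcgr. The rule was applied to the VAT libraries, where it found 146 nuclei among 9504 kept nuclei. All 6 libraries held 27074 kept nuclei, and the few SAT nuclei that passed the same gene limits are given below. All 146 came from VAT replicate 2, where they made up 2.88% of 5070 kept nuclei (exact 95% interval 2.44% to 3.38%). In VAT replicate 1, 0 of 4434 kept nuclei met the rule, which allows a share of up to 0.0677% when 3 counts are taken as the limit for a count of 0, and up to 0.0832% by the exact 95% interval. Intervals and limits of this kind cover counting error only.

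With every multiciliated nucleus in 1 library, the VAT libraries differed, and no comparison of these nuclei with others has a replicate. The values below therefore describe that library, with no test. Total UMIs over kept nuclei ranged from 5262801 to 11480055 per library, and the median UMIs per kept nucleus from 1380 to 1878. VAT replicate 2 stood apart from the other 5 libraries by a median mitochondrial share of 5.07%, against 0.776% to 3.49%. It also held many nuclei with Lhcgr or Ovgp1, genes of ovary and oviduct: Lhcgr reached 378 CPM (counts scaled to 1000000 UMIs) there, against 0.784 to 3.15 CPM in the others. The part of these nuclei in the results below was not tested.

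The label of the nuclei was checked with genes that the rule did not use. Of 191 genes in 12 lists of cilium genes, 190 outside the 7 selecting genes were found in the files. These 190 genes together took a median of 65.0 of every 1000 UMIs in the multiciliated nuclei, with a range from 3.99 to 111. In the other 4924 kept nuclei of the library the median was 4.79 of 1000 UMIs, with a 95th percentile of 10.3. In 3 of the 146 nuclei the value was under 15 of 1000, and these 3 had no Foxj1 UMI.

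At the library level the same 190 genes showed where the transcripts lay. Their sum was 3644 and 3432 CPM in the 2 SAT libraries at 2 months, 3610 and 3033 CPM in those at 24 months, 3435 CPM in VAT replicate 1 and 7402 CPM in VAT replicate 2. VAT replicate 2 was thus the highest, and the other 5 lay close together. Without the multiciliated nuclei it fell to 5378 CPM and was still above the others.

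**Figure D1:**
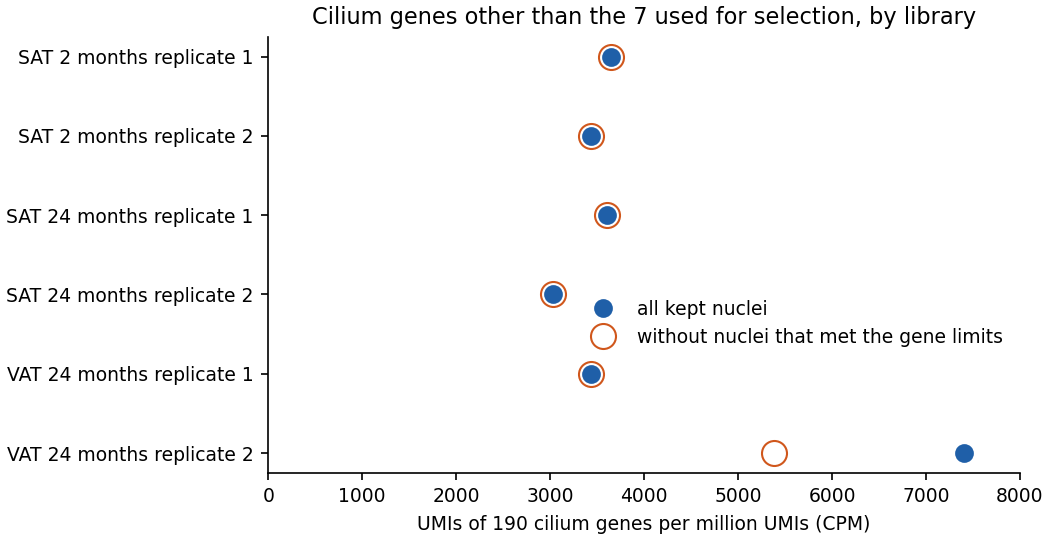
CPM of the 190 cilium genes (x axis) over the kept nuclei of each of the 6 libraries (rows), with all kept nuclei as filled points and without the nuclei that met the gene limits as open rings. VAT replicate 2 lies at 7402 CPM and at 5378 CPM without the 146 nuclei, and the other 5 libraries lie between 3033 and 3644 CPM.

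The same gene limits were met by 2, 1, 5 and 0 nuclei in the SAT libraries. These 8 nuclei had 4 to 6 UMIs of the selecting genes and no UMI of Foxj1, and the 190 cilium genes took 1.17 to 12.6 of 1000 UMIs in them. The median of the multiciliated nuclei lay above all 8 on both measures. Near the limit within VAT replicate 2, the 8 multiciliated nuclei with 4 to 6 selecting UMIs had a median of 23.0 of 1000 UMIs from the other cilium genes. The 27 nuclei just below, with 3 selecting UMIs, had a median of 6.32. Another 25 nuclei met the cilium limit and were left out for UMIs of other cells. Lhcgr led in those, with 39 UMIs in 11 nuclei.

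The multiciliated nuclei held a median of 2079 UMIs (1012 to 8249) and 1249.5 genes. The other kept nuclei of the library held a median of 1582 UMIs. The selecting genes gave a median of 33 UMIs per nucleus (4 to 158), from 6 of the 7 genes in the median. Dnah12, a heavy chain of the inner dynein arms, was at 4305 CPM and was seen in 98.6% of the nuclei. The inner arm chain Dnah6 was at 3000 CPM, Cfap43 at 2678 CPM and the central apparatus gene Spag17 at 1595 CPM. These values fixed the selection and are given as a description. Counts of nuclear RNA grow with gene length, so levels are compared for the same gene between nuclei and not between genes. Of the barcodes of the multiciliated nuclei, 1 was also kept in a SAT library at 2 months.

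For the other genes, UMIs were summed over the 146 nuclei and over the 4924 other nuclei, and a gene was compared where it had at least 30 UMIs in the library. Among 16665 genes compared, 887 (5.32%) were at 4-fold or more in the multiciliated nuclei, and 625 (3.75%) were called at a ratio of 0.25 or less. For the low call a gene under 3 UMIs in the multiciliated nuclei was set to 3 UMIs, so a gene with few UMIs elsewhere could not reach it. Of the 179 cilium genes compared, 128 (71.5%) were at 4-fold or more and 0 were called low by that limit. Their median ratio was 12.8, against 0.744 for all genes compared. Differences between the lists below are given as counts and medians and were not tested.

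Foxj1 had the highest ratio of the 6 transcription factors. It reached 961 CPM in the multiciliated nuclei and 13.5 CPM in the others, a ratio of 71.1 (exact 95% counting interval 58.1 to 87.4). The 25 nuclei left out for UMIs of other cells held 50 of the 133 Foxj1 UMIs of the others, and without them the ratio was 112.9. A Foxj1 UMI was found in 107 of 146 nuclei. After thinning every nucleus to 1000 UMIs, 52.1% of the multiciliated nuclei had one, against 1.40% of the immune nuclei. The 643 immune nuclei were chosen with no limit on the selecting genes, and 7 of them had 4 or more such UMIs. The median depths before thinning were 2079 UMIs in the multiciliated and 1387 UMIs in the immune nuclei, and the unthinned shares were 73.3% and 1.87%. Across the libraries Foxj1 stood at 4.06, 2.16, 2.09, 1.48 and 0.280 CPM in SAT and VAT replicate 1 and at 47.8 CPM in VAT replicate 2. Trp73, the p53 relative that acts above Foxj1, was at 208 CPM against 8.85 CPM, a ratio of 23.6 (17.1 to 32.4). Rfx2 was at 349 CPM against 24.5 CPM, a ratio of 14.3 (11.4 to 17.7). Rfx3, which also serves primary cilia, had 382 CPM against 107 CPM, a ratio of 3.57 (2.97 to 4.26). Its side of the 4-fold limit depended on the nuclei compared, with a ratio of 6.25 over the secretory nuclei described below, 4.44 with only the multiciliated nuclei under 3% mitochondrial UMIs and 4.11 without those with 5 or more Ovgp1 UMIs. E2f4 and E2f5, partners of multicilin, were not high. E2f5 had a ratio of 1.54 (0.942 to 2.39) and E2f4 a ratio of 0.311 (0.124 to 0.644).

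The force-producing parts came next. Of 11 further axonemal dynein heavy chains compared, 8 were at 4-fold or more. Dnah3 had the highest ratio, with 1654 CPM against 16.9 CPM, a ratio of 98.0 (82.4 to 117), and the outer arm chain Dnah11 had 1061 CPM against 50.5 CPM. Dnah7c was at 1470 CPM and Dnah7b at 926 CPM, but these near-identical copies may share reads, so their split is uncertain. The 3 chains that were not high were Dnah8 (ratio 0.389), Dnah14 (1.71) and Dnah17, which had 0 UMIs in the multiciliated nuclei and 63 in the others. All 11 intermediate chains, light chains and docking genes compared were at 4-fold or more, led in UMIs by Dnai3 with 856 CPM against 10.7 CPM, then Dnai4, Odad1 and Odad2. Dynein assembly factors, which fold the arms in the cytoplasm, were high for 5 of 11. Dnaaf11 had a ratio of 39, Zmynd10 one of 55.2 and Dnaaf3 one of 29.2, while Dnaaf9, the factor with most UMIs, had one of 1.92 (1.63 to 2.23).

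Of the structural parts of the axoneme, all 12 central apparatus genes were at 4-fold or more, with Cfap65 at 1776 CPM against 18.6 CPM, Cfap46 at 1608 against 19.8, Spef2 at 1560 against 47.2 and Spag6l at 1286 against 21.1 CPM. All 13 genes of the nexin-dynein regulatory complex and the axonemal rulers were high too. Among them were Ccdc39, a ruler that sets the spacing of the arms, with a ratio of 57.8 (49.1 to 68.2), its partner Ccdc40 with 47.7, Cfap100 with 75.1 and Drc3 with 22.9. Radial spoke genes were high for 12 of 14, and Cfap61 and Cfap251, with the most UMIs, had ratios of 43.7 and 41.5, and Rsph10b and Iqub had ratios of 32.3 and 43.8. Microtubule inner proteins, which line the inside of the doublets, were high for 21 of 25, with Ak7 at 1005 CPM against 28.1, Enkur at 504 against 19.1 and Efhb at 441 against 18.2 CPM.

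Intraflagellar transport and BBSome genes carry cargo in every kind of cilium, and 15 of 35 were at 4-fold or more, with a median ratio of 3.37 and a highest ratio of 9.89. Dync2i1 had a ratio of 7.09, Ift88 one of 7.92, Ift81 one of 7.43 and Dync2h1 one of 4.85. No gene of that list lay below 1, its lowest ratio being 1.21. Basal body and transition zone genes were high for 10 of 20. Cep83 had a ratio of 10.8 and Cep290 one of 5.53, and Bbof1 and Nek10, both with roles in motile cilia, had ratios of 26.6. Tubulin modifying enzymes and ciliary kinesins were high for 14 of 15, and Agbl4, the gene of that list with the most UMIs, was at 1960 CPM against 86.8 CPM. The kinesins Kif6 and Kif9 had ratios of 28.0 and 23.3, and Ttll3, a tubulin glycylase, had one of 18.1.

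**Figure D2:**
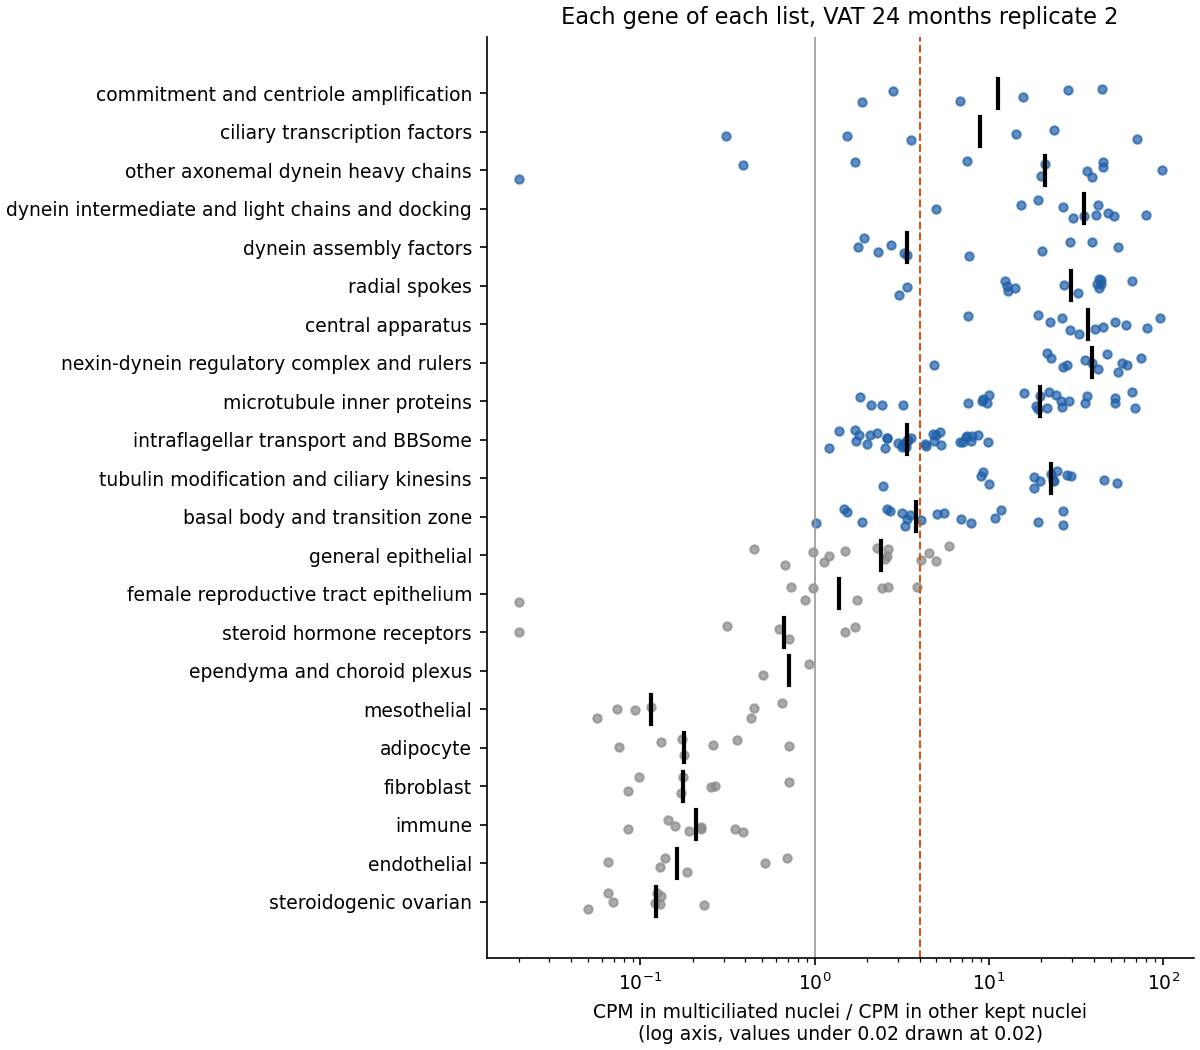
Ratio of CPM in the 146 multiciliated nuclei to CPM in the 4924 other kept nuclei of VAT replicate 2 (x axis, log) for each gene with at least 30 UMIs (points), by list (rows), cilium lists in blue and other lists in grey. Black bars are medians, the dashed line marks 4-fold, and the medians of central apparatus and of intraflagellar transport genes lie at 36.8 and 3.37.

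Outside the lists, 15 genes were ranked highest by the ratio with 10 CPM added to both sides, among genes with at least 50 UMIs. Several of these are known from cilia or flagella. The ratios printed here are without the added CPM, and over all genes compared the highest such ratio was 164. In the ranking Ccdc180 led with 2418 CPM against 19.6 CPM, a ratio of 123 (105 to 145), and was seen in 93.8% of the nuclei. Rgs22 had a ratio of 106, Tmem212 one of 104 and Cfap44, a gene needed for flagellar beat, had 3536 CPM against 69.7 CPM. Cdhr3, Ak9, Rp1, Lrrc36, Zbbx, Lrrc71, Muc12, Rnf112 and the non-coding 3300002A11Rik had ratios from 56.9 to 107. Gm867 and Endog, with ratios of 120 and 71.0, were also among the 15. Of the 15 genes, 11 overlap an annotated gene on the opposite strand, including Gm867 (Chchd10), Endog (Spout1), Lrrc71 (Arhgef11), 3300002A11Rik (Foxn3) and Ccdc180, and how the counting treated strand was not given in the sources used here, so reads of both strands may be mixed in these 11. Among all 887 genes at 4-fold or more, 128 were members of the cilium lists, 739 were protein-coding and 121 (13.6%) were long non-coding, against 11.6% of all genes compared. The symbol family Cfap held 37 genes at 4-fold or more of 45 compared, and the less specific family Ccdc held 27 of 107.

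The lowest ratios outside the lists were those of Kcnab1, Pitpnc1, Mdfic, Kcnd2 and Zeb2. The first 3 rest on 2, 1 and 2 UMIs in the multiciliated nuclei, with ratios of 0.0173 (0.00209 to 0.0626), 0.0192 (0.000485 to 0.107) and 0.0333 (0.00402 to 0.120). Kcnd2, with 15 UMIs, had a ratio of 0.0498 (0.0279 to 0.0823), and Zeb2, with 13, one of 0.0702 (0.0373 to 0.120). Kcnab1 and Kcnd2, subunits of potassium channels, reached 636 and 1641 CPM in the mesothelial nuclei of the library. Markers of other cells were compared without Ptprc, Skap1, Ptprb, Upk3b, Plin1 and Lhcgr, which the rule itself kept low. Called at a ratio of 0.25 or less were 4 of 6 immune, 5 of 7 steroidogenic ovarian, 3 of 6 adipocyte, 2 of 6 mesothelial, 3 of 7 fibroblast and 2 of 5 endothelial genes. Of these 37 genes 19 were called, against 3.75% of all 16665 genes compared. All 37 genes had ratios below 1, from 0.0499 to 0.711, but the median over all genes compared was 0.744. Ratios close to that median are therefore not low beside all genes. Cyp11a1, which starts steroid synthesis, had 78.5 CPM against 1203 CPM, and Hsd3b1 and Inha had ratios of 0.125 and 0.230. Of the mesothelial genes Wt1 had a ratio of 0.652, Upk1b 0.0930, Krt19 0.450 and Msln 0.434. Of the adipocyte genes Pnpla2 had a ratio of 0.711, Cidec 0.131, Plin4 0.177 and Acvr1c 0.356. Of the fibroblast genes Col6a1 had a ratio of 0.0987, Dcn 0.175, Fbn1 0.710 and Col3a1 0.0852. Among immune genes Cd74 had a ratio of 0.224, Inpp5d 0.347 and Dock2 0.143, and among endothelial genes Flt1 had 0.693, Pecam1 0.186, Cdh5 0.517 and Mmrn1 0.139.

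Promoters of the high genes were read from the GRCm39 genome with the GENCODE M39 start sites, over the 300 bases before the start. The X-box is the site that Rfx factors bind, and its half-site GTTGCC was searched on both strands. It was found before 51 of 190 cilium list genes (26.8%), 32 of the 128 at 4-fold or more (25%) and 15 of the 51 compared that were not (29.4%). Of all 21769 protein-coding promoters, 11.0% held it. Of all 739 protein-coding genes at 4-fold or more 18.9% held it, of the 611 outside the lists 17.7%, and of all genes compared 11.4%. None of these differences was tested. A pair of half-sites, GTTNCC and GGNAAC with 1 to 3 bases between them, was found before 2 of the 128 genes (1.56%) and 0.588% of all promoters, and it overlaps the half-site where N is G. The forkhead motif GTAAACA, which Foxj1-like factors bind, was found before 3.12% of the 128 and 3.43% of all. A match is a description of these letters and not a measured binding site. Several stretches of 60 bases are shown, written 5′ to 3′ on the strand of the gene, with the first match in capitals. Efhb and Iqca1 carry the pair, Cfap65, Cfap46 and Dnah7c are the high list genes with most UMIs that carry the half-site, and Foxj1 is shown as the leading factor.
Efhb, chr17:53770350-53770409, minus strand: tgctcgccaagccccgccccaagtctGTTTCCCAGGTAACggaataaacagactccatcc
Iqca1, chr1:90081243-90081302, minus strand: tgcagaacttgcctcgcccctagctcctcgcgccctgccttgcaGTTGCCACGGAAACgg
Cfap65, chr1:74974772-74974831, minus strand: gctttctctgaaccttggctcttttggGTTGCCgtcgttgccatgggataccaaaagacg
Cfap46, chr7:139263734-139263793, minus strand: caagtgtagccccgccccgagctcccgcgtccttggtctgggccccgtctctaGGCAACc
Dnah7c, chr1:46464452-46464511, plus strand: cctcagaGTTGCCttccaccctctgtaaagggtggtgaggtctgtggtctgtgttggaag
Foxj1, chr11:116226306-116226365, minus strand: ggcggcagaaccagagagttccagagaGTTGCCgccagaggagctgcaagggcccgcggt

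Which ciliated epithelium the nuclei resemble was described with marker lists. The airway list had 0 genes with enough UMIs to be compared, and 7 of its 10 genes were at 0 in the multiciliated nuclei. It holds mainly genes of secretory airway cells, so it cannot tell whether ciliated nuclei are of the airway. Its sum was 19.0 CPM in the multiciliated nuclei, 9.56 CPM in all other nuclei, 14.2 CPM in secretory and 16.1 CPM in immune nuclei. Sftpc had 4 UMIs in the multiciliated nuclei, Bpifb1 2 and Bpifa1 1. Over all kept nuclei of the library these genes were at 1.08, 2.65 and 0.196 CPM, too few UMIs to be compared. The multiciliated nuclei held 3.62% of the UMIs of the library, so Sftpc was higher in them than in the others. That rests on few UMIs and was not tested. Of the ependymal list 2 genes were compared, neither was at 4-fold or more, and 4 of 10 were at 0. That list summed to 244 CPM in the multiciliated nuclei, 230 CPM in all other nuclei, 40.7 CPM in secretory, 28.8 CPM in mesothelial and 68.0 CPM in immune nuclei. S100b had 11 UMIs in the multiciliated nuclei, Aqp4 2 and Otx2 1. Over all kept nuclei of the library these genes were at 2.35, 0.882 and 2.06 CPM, too few UMIs to be compared. S100b was thus higher in the multiciliated nuclei, which held 3.62% of the UMIs, than in the others. The count of 2 genes compared leaves it out, and it was not tested. Nnat was at 6.56-fold over the secretory nuclei described below. In the list of the female reproductive tract, 0 of 8 genes were at 4-fold or more, the median ratio was 1.37, and 4 of 11 genes were at 0. Ovgp1, the oviduct-specific glycoprotein of secretory cells, was at 1803 CPM, against 470 CPM in all other nuclei. Levels of Ovgp1 were 51.2 CPM in mesothelial and 112 CPM in immune nuclei of the library. Pax8, a transcription factor of the Müllerian duct epithelium, was at 257 CPM, against 106 CPM in all other nuclei, a ratio of 2.43 (1.95 to 3.00). It stood at 26.4 CPM in mesothelial and 26.9 CPM in immune nuclei. Emx2 and Sox17 had ratios of 0.982 and 2.65 over all other nuclei. Thinned to 1000 UMIs, 37.7% of the multiciliated nuclei had an Ovgp1 UMI, against 5.75% of the immune nuclei. General epithelial genes were at 4-fold or more for 4 of 14, and Cdh1 (E-cadherin) had 295 CPM against 72.5 CPM, while Krt18, Epcam and Krt7 had ratios of 1.5, 1.20 and 0.678. Of the 6 steroid hormone receptors 0 were at 4-fold or more, with Esr1 at a ratio of 1.49 and Nr3c2 at 0.624.

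Nuclei with at least 5 Ovgp1 UMIs, at most 1 UMI of the selecting genes and at most 1 of the other-cell genes were set beside them as secretory nuclei. There were 220 of these in the library, chosen by Ovgp1. They held 5954 CPM of Ovgp1, 663 CPM of Pax8 and 2104 CPM of the estrogen receptor Esr1. The multiciliated nuclei held less of each, with 1803, 257 and 764 CPM, and were between the secretory and the mesothelial nuclei for all 3 genes. For Foxj1 the order was reversed, with 961 CPM in the multiciliated and 26.5 CPM in the secretory nuclei, a ratio of 36.3 (21.0 to 68.9). Between both kinds of nuclei 6448 genes could be compared, 504 (7.82%) were at 4-fold or more in the multiciliated nuclei and 215 (3.33%) at a ratio of 0.25 or less. Of the cilium genes 112 of 158 were at 4-fold or more. Dnah14 went the other way, with 86.6 CPM in the multiciliated and 313 CPM in the secretory nuclei. Mecom, A2ml1, Snhg11 and Cdkl1 had more CPM in both kinds than in mesothelial and immune nuclei. Mecom was at 799 CPM in the multiciliated nuclei against 352 CPM in all other nuclei. A2ml1, an alpha-2-macroglobulin-like protease inhibitor, had 828 and 608 CPM, against 7.69 CPM in mesothelial and 11.6 CPM in immune nuclei. These 4 were named after their values were seen.

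**Figure D3:**
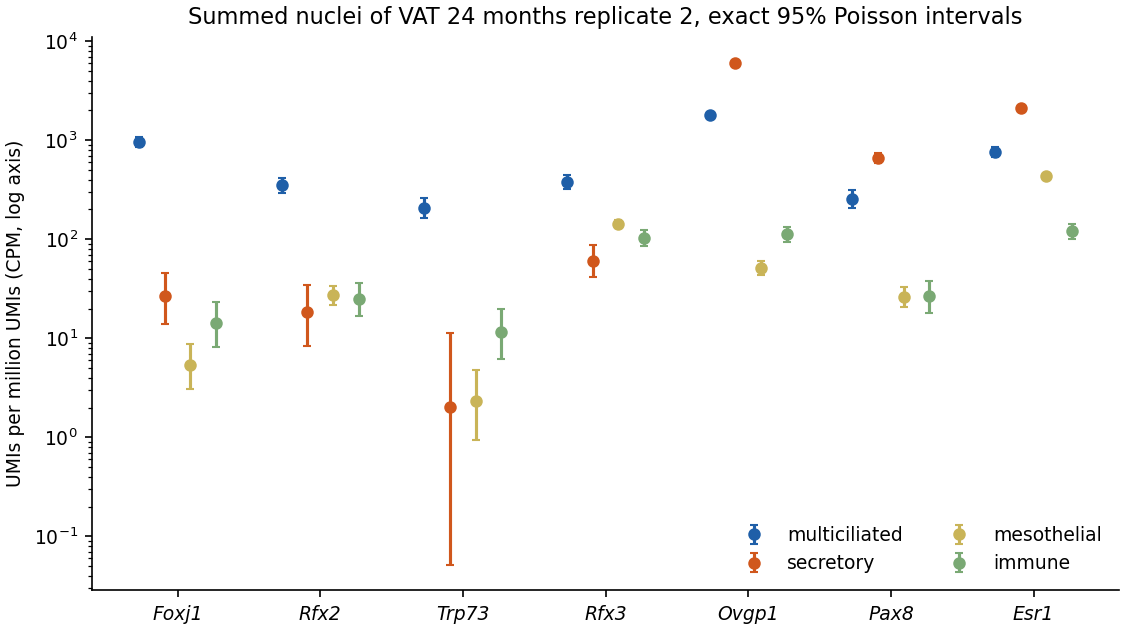
CPM (y axis, log) of 4 ciliary transcription factors and of Ovgp1, Pax8 and Esr1 (x axis), summed over the multiciliated, secretory, mesothelial and immune nuclei of VAT replicate 2, with exact 95% Poisson intervals. Foxj1 is at 961 CPM in the multiciliated nuclei and at 26.5 CPM in the secretory ones, and Ovgp1 at 1803 and 5954 CPM.

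The multiciliated nuclei were not uniform in Ovgp1. At least 5 UMIs were found in 34 nuclei, 1 to 4 in 42 and none in 70. The 34 nuclei had a median depth of 2970 UMIs and 45.0 of 1000 UMIs from the 190 cilium genes. The 70 nuclei without Ovgp1 had a median depth of 1598.5 UMIs and 73.8 of 1000 from the cilium genes. The split used raw UMIs, which by itself picks deeper nuclei, so these values are a description. The doublet caller Scrublet marked 3 of 5070 nuclei (0.0592%), too few for its calls to be used, and 0 of the 146. Its median score was 0.0978 in the 34 nuclei, 0.0475 in all multiciliated and 0.0182 in the secretory nuclei, against a threshold of 0.535. The part of doublets in the Ovgp1 values was not tested further.

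**Figure D4:**
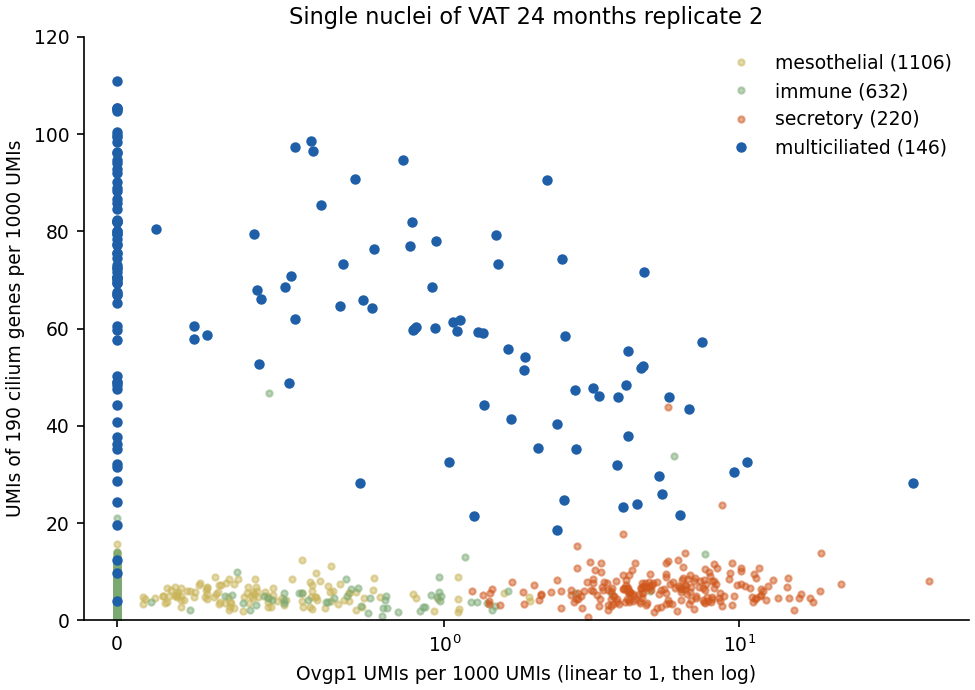
UMIs of the 190 cilium genes per 1000 UMIs (y axis) against Ovgp1 UMIs per 1000 (x axis, linear to 1 and then log) in single nuclei of VAT replicate 2, each nucleus drawn once. The 146 multiciliated nuclei have a median of 65.0 and the 220 secretory nuclei one of 6.17 on the y axis.

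The nuclei were also split at a mitochondrial share of 3%, a limit set after seeing the data and with no gap in the shares there. Of the 146 nuclei, 85 had under 3% and 61 had 3% or more, with medians of 0.604% and 10.1%. Ovgp1 was at 806 CPM in the first and at 2762 CPM in the second, and Foxj1 at 690 and 1222 CPM. Dnah12 went the other way with 5285 and 3362 CPM. Of the 179 cilium genes compared, 131 were at 4-fold or more with the 85 nuclei alone and 124 with the 61 nuclei alone, beside 1029 and 899 of all 16665 genes. The part of RNA quality in these values was not tested.

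Genes of an earlier step were concentrated in few nuclei. Before cilia form, Gmnc and Mcidas (multicilin) start a programme in which Deup1, Plk4 and Cep152 help to make many centrioles at once. The 9 genes of this list gave 219 UMIs in the 146 nuclei, with 4 of the 6 genes compared at 4-fold or more. At least 1 of these UMIs was found in 47 nuclei and 2 or more in 24, and 99 nuclei had none. Gmnc was found in 19 nuclei and Myb in 22. Of the 219 UMIs, 138 lay in 3 nuclei, which had 71, 34 and 33, and no other multiciliated nucleus had more than 9. Among the 4924 other kept nuclei the highest value was 8. These 3 nuclei were singled out after their values were seen, and they are described without a test.

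Cdc20b, whose locus hosts microRNAs of multiciliated cells, had 29, 14 and 13 UMIs in the 3 nuclei and 1 UMI in the other 143. Deup1, the scaffold of the deuterosomes on which centrioles are made, had 22, 10 and 3 UMIs, and 9 in the other 143. Mcidas had 2, 1 and 3 UMIs and Foxn4 2, 1 and 2, and both were at 0 in the other 143. Gmnc was different, with 1 UMI in the 3 nuclei and 32 in the others. Ccdc18 had 38 UMIs in the 3 nuclei and 2 in the others, Stil 9 and 2, Cep295 19 and 17, Cenpf 10 and 2, and E2f7 10 and 3. Stil and Cep295 act in centriole assembly, while Cenpf and E2f7 are known from the cell cycle.

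The selecting genes were unevenly shared between the same 3 nuclei and the others. Since the rule used these genes and the nuclei were singled out, the values are a description, and the intervals cover counting error in these nuclei only. Dnah5, an outer arm heavy chain, had 1 UMI in them and 438 in the others, that is 95.2 and 1221 CPM. Cfap43 had 6 and 983 UMIs, a ratio in CPM of 0.208 (0.0763 to 0.455). Spag17 was at 4854 and 1499 CPM, a ratio of 3.24 (2.38 to 4.32), and Dnah12 was at 6282 and 4247 CPM. Dnah6, Hydin and Dnah9 had ratios of 0.853 (0.560 to 1.25), 1.16 (0.630 to 1.97) and 0.441 (0.119 to 1.14). Foxj1 was present in all 3, with 2, 2 and 1 UMIs. Ovgp1 had 1 UMI in the 3 nuclei and 665 in the others. Their depths were 5000, 3236 and 2270 UMIs and their mitochondrial shares 0.04%, 0.340% and 0.352%.

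**Figure D5:**
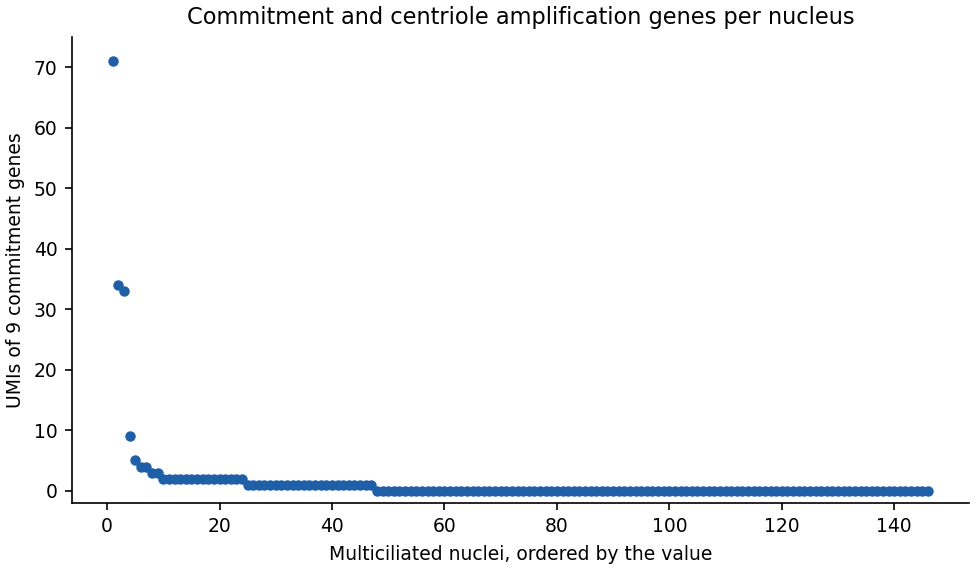
UMIs of the 9 commitment and centriole amplification genes (y axis) in each of the 146 multiciliated nuclei, ordered by that value (x axis). The first 3 nuclei have 71, 34 and 33 UMIs, the next has 9, and 99 have 0.

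Whether the depots differ in these genes was tested over libraries, with all kept nuclei of each summed. VAT and SAT at 24 months were compared with edgeR over all 6 libraries. Of 21729 genes tested, 3 (0.0138%) passed an adjusted p of 0.05, and of 182 cilium genes 0 passed. At an unadjusted p under 0.05 there were 35 of the 182 and 1657 of all genes, and DESeq2 called 7 of 180 cilium genes beside 520 of all 20465 genes (2.54%). With no filter on low counts edgeR called 25 of 189 cilium genes beside 1034 of 41598 genes (2.49%). The fold changes of the list had a median of 0.96 on the log2 scale, against 0.03 for all genes, and 164 of 182 were higher in VAT. Without VAT replicate 2 the median of the list was 0.12, against -0.11 for all genes, and 105 of 183 were higher. Foxj1 differed by 3.6 (SE 1.74) on the log2 scale with an adjusted p of 0.712 from edgeR, with VAT libraries at 0.280 and 47.8 CPM. Ovgp1 differed by 5.18 (SE 1.73) with an adjusted p of 0.569 from edgeR, with VAT libraries at 5.51 and 518 CPM. Without VAT replicate 1, 40 of 186 cilium genes passed, all higher in VAT, beside 952 of 23661 genes in all (4.02%). Without VAT replicate 2, 1 of 183 passed, which was lower, beside 374 of 22978 (1.63%). In both fits VAT is 1 library, which is assumed to vary like the libraries of the other groups. In summed nuclei, more nuclei of a kind and more RNA per nucleus cannot be told apart.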

How the data were processed

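Single nuclei were captured with the Singleron GEXSCOPE kit, although 1 label field names another platform. The authors aligned and counted reads with Celescope on GRCm39. Its version and the annotation release were not given in the sources used here. The deposited matrices hold raw UMI counts of 56980 genes per barcode, and 50859 barcodes were deposited, of which 27074 were kept. Members and gene lists were chosen with earlier results of these data known. Of 298 list entries, 291 matched by symbol, 6 by identifier and 1 was not found.

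CPM are UMIs scaled to 1000000 UMIs of the summed nuclei. Ratios carry exact conditional binomial intervals, and a comparator under 3 UMIs was set to 3. Mesothelial nuclei had at least 3 UMIs of Upk3b, Upk1b and Msln and at most 1 of the selecting genes. Immune nuclei had at least 3 UMIs of Ptprc and Skap1, with no limit on the selecting genes. Named were, per list, up to 4 genes with the most UMIs in the multiciliated nuclei and each transcription factor. Outside the lists, the 15 highest ratios (10 CPM added to both sides, at least 50 UMIs) and the 5 lowest (at least 500 UMIs) were named. Other named genes were chosen after their values were seen, and 2 genes that the rule names are not reported here.

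Libraries were compared with edgeR 4.0.16 (quasi-likelihood test, TMM, filterByExpr, Benjamini-Hochberg) in R 4.3.3, with DESeq2 1.42.0 as an alternative. SciPy 1.17.1 and Scanpy 1.11.5 were used in Python 3.11.15. The ratio and edgeR steps were tested on simulated data. The methods describe replicate mice within an age, but do not say which library came from which mouse.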

Additional observations from a re-analysis of the deposited data

Results flagged for a closer look

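Outside the nucleus filters, 79 barcodes of VAT replicate 2 also met the gene limits for multiciliated nuclei, among 6271 barcodes that no comparison used. In the other 5 libraries 0 to 7 such barcodes did, so the signal was above that of the other libraries.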

How the results depend on the processing

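The number of multiciliated nuclei was 225 with every deposited barcode, against 146. Under the 5 other settings it lay between 106 (no UMI of other cells allowed) and 192 (no mitochondrial limit). The 128 cilium genes at 4-fold or more became 106 to 160 under 11 alternatives, of which 5 were chosen after seeing the data. The 160 are of 179 genes at 2-fold, beside 2122 of 16665 genes in all, and the 106 are of 154 genes with at least 100 UMIs, beside 526 of 12304. The count of cilium genes called between VAT and SAT depended most on the setting. It was 0 in edgeR, 7 with DESeq2 and 25 with no filter on low counts. Over all genes these gave 3, 520 and 1034 calls. Leaving out 1 library at 24 months gave 0 to 40 cilium genes, with 0 genes in all without either SAT library, 952 without VAT replicate 1 and 374 without VAT replicate 2. Each such fit has a group of 1 library, which is assumed to vary like the others. The cause was not tested. With the replicate number as a block in the 4 libraries at 24 months it was 0, and also 0 with the crossed pairing, where 5 and 38 of 180 cilium genes had an unadjusted p under 0.05, beside 439 and 1688 of 20441 genes in all. Deviations of same-numbered libraries correlated at r = -0.476 over 21729 genes, which does not tell which libraries share a mouse. Among single genes, 5 ratios changed direction. Against the secretory nuclei the ratios of Ovgp1, Pax8 and Esr1 were 0.303, 0.388 and 0.363. Ovgp1 had 0.703 without the nuclei that held 5 or more of its UMIs. Both Ovgp1 values follow from choosing nuclei by Ovgp1 and say nothing on stability. Cdc20b had 0 in the nuclei at 3% mitochondrial UMIs or more. Of its 57 UMIs, 56 lay in the 3 nuclei rich in commitment genes, all of which were under 3%. The Foxj1 ratio ranged from 36.3 to 112.9. Most results rest on 1 library, and sampling of 146 nuclei limits genes with few UMIs.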

Other observations

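Against the secretory nuclei, 1 of 12 general epithelial genes was at a ratio of 0.25 or less and 0 at 4-fold or more, with a median ratio of 0.736, beside 3.33% of all 6448 genes at 0.25 or less and a median of 0.824 over all. Of the steroid receptors, 0 of 5 passed either limit. The 1 epithelial gene was the Ets factor Ehf, which was at 83.9 CPM in the multiciliated and 429 CPM in the secretory nuclei. The progesterone receptor Pgr was at 70.4 and 218 CPM. Abcb5 was at 86.6 and 930 CPM, and 14 of its 32 UMIs in the multiciliated nuclei lay in the 3 nuclei rich in commitment genes. Bcl2l15 had 1 UMI in the multiciliated nuclei and 88 in the secretory ones. These genes were chosen after their values were seen.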
